A study of Mus musculus with 5 samples.

Results

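Imprinted genes are transcribed mainly or only from the copy inherited from one parent. Their transcripts were examined here in Neuro2A cells, a line from a mouse neuroblastoma, after stable knockdown of a histone demethylase and in control lines. A list of 51 imprinted genes was matched by gene symbol to an Affymetrix 3' expression array, taking only probe sets annotated with a single symbol. This gave 119 probe sets for 47 of the 51 genes, out of 45037 non-control probe sets (18193 genes by the same rule). No such probe set was found for H19, Zrsr1, Peg13 or Kcnk9, and 8 further probe sets that name a listed gene together with another symbol, 6 of them shared by Snurf and Snrpn, were left out. A probe set was tested when its mean log2 signal over the arrays reached the median of all probe sets, which corresponds to a signal of 40.5. That left 61 probe sets for 29 genes among 22519 tested, and 18 genes had only dimmer probe sets. At this limit, Meg3 1436057_at with a geometric mean signal of 41.9 was tested and Kcnq1ot1 1441588_at with 39.0 was not.

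The study asked what the histone demethylase KDM7, encoded by Kdm7a, does to gene expression. KDM7 knockdown line 1 and KDM7 knockdown line 2 were stable lines carrying 2 different vectors against KDM7. The 3 control lines were the untransfected parental cells, cells transfected with an empty vector, and cells transfected with a vector against EGFP, a fluorescent protein gene foreign to the mouse. All 5 lines derive from Neuro2A, each was measured on 1 array, and the labels do not say whether a stable line is a clone or a pool. The lines of a group served as replicates, so an SD or SE holds differences between lines and constructs, and the p-values measure only the spread between these 5 arrays. A signal is an average over the cells of a line, so more expressing cells and more transcript per cell cannot be told apart, nor can the array tell the parental alleles apart.

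Imprinted genes lie in clusters governed by an imprinting control region that carries DNA methylation on one parental copy, laid down in the egg or sperm. Within a cluster, some genes are expressed from the paternal and others from the maternal copy, often with a long non-coding RNA transcribed opposite to protein-coding genes. In the early embryo the zinc finger protein ZFP57 binds the methylated hexamer TGCCGC and protects many of these marks. Zdbf2 encodes a zinc finger protein of the DBF4 type and is expressed from the paternal copy. In mice its loss reduces postnatal growth. Many imprinted genes are active in brain and endocrine tissue, and several act on growth.

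Promoter sequences are shown for Zdbf2, Nap1l5 and Blcap, which had 3 of the larger differences between knockdown and control lines, described further on. Igf2 and Igf2r, with log2 differences of 0.92 and 0.58, are not shown. They are RefSeq windows of build GRCm38.p6, from 250 bases before to 50 bases after an annotated start, written 5′ to 3′ in the direction of the gene. Capitals mark TGCCGC on either strand, so that GCGGCA is its match on the opposite strand. Zdbf2 has 2 annotated starts that lie 72911 bases apart, both on the + strand of chromosome 1, at chr1:63200108-63200407 for the upstream window and chr1:63273019-63273318 for the downstream one. Nap1l5 lies on the - strand at chr6:58907077-58907376, and Blcap on the - strand at chr2:157566312-157566611.
Zdbf2 upstream start: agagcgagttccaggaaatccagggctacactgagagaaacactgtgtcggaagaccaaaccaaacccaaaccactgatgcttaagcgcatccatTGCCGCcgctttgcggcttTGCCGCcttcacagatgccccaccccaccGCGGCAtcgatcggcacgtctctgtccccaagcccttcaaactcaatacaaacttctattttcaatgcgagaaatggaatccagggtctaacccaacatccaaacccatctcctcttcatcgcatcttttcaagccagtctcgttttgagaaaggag
Zdbf2 downstream start: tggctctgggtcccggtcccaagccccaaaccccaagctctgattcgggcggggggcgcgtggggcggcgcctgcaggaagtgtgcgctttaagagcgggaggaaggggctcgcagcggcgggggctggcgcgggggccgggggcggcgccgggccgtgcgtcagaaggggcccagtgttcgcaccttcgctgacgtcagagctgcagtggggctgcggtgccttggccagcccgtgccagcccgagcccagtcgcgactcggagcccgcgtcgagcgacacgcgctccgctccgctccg
Nap1l5: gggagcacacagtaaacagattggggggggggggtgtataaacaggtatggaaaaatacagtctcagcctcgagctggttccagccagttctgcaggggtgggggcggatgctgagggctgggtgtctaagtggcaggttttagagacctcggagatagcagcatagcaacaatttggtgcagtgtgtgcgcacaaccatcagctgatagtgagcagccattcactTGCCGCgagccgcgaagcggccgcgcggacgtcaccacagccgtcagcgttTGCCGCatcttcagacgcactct
Blcap: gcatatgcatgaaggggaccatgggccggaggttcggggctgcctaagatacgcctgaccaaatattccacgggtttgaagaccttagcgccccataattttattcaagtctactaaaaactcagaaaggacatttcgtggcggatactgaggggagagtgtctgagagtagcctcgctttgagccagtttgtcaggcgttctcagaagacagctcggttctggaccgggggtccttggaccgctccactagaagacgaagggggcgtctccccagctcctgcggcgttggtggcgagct
The upstream Zdbf2 window held 3 matches and 15 CpG dinucleotides, and the downstream window held 0 matches and 38 CpG. Nap1l5 held 2 matches and 17 CpG, and Blcap 0 matches and 17 CpG. Of the genes not shown, Igf2r held 0 matches and 34 CpG, and the windows of Igf2 held 0 or 1 match. Of all 32851 windows of this length in the table, 11.6% held at least 1 match, 1.53% at least 2 and 0.234% at least 3. Windows were found for 40 of the 51 listed genes, 59 windows in all, of which 15 (25.4%) held a match. These 15 came from 14 genes, and the Mest windows among them overlap each other. The median CpG number was 16 in the windows of imprinted genes and 7 over all windows. TGCCGC itself holds a CpG, and the shares with a match were not compared at equal CpG number. A match is a match of letters and was not set against binding data, and which of the starts gave the transcripts measured by the Zdbf2 probe set was not analysed here.

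Kdm7a was lower in the knockdown lines, with signals by probe set 1456150_at of 130 and 136 in KDM7 knockdown lines 1 and 2, against 487 in parental cells, 611 with the empty vector and 665 with the EGFP vector. Of 13 sympathoadrenal and neuroblastoma markers with a probe set, 12 were above the brightness limit, and Th, tyrosine hydroxylase, was under it. Their summed signal was 55729 to 64038 in knockdown lines and 54618 to 61352 in control lines. Over all fibroblast, macrophage, Schwann cell and endothelial markers, 3 of 15 were above the limit, namely Col1a2, Pdgfra and Csf1r, and no list summed to more than 226 in any line. The parental array stood apart from the others. Its log2 signals correlated with the other 4 arrays at 0.964 to 0.968 across tested probe sets, while those 4 correlated with each other at 0.976 to 0.983. Counts of members, and the differences of some of the genes it moves, are therefore also given without it.

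Zdbf2 had the largest difference among the 61 tested probe sets of imprinted genes. Probe set 1456783_at, the only one for the gene, had signals of 1152 and 1141 in KDM7 knockdown lines 1 and 2, against 369 in parental cells, 233 with the empty vector and 282 with the EGFP vector. The knockdown lines were both above all control lines, the nearest control being the parental line, 3.09-fold below the lower knockdown value. The means were 1147 ± 7.75 (SD, n = 2) in knockdown and 294 ± 69.1 (SD, n = 3) in control lines. The log2 difference was 1.99 (SE 0.22, 95% interval 1.49 to 2.49), or 3.97-fold by mean log2 values. Line 1 minus controls gave 1.99 and line 2 minus controls 1.98, so that the knockdown lines differed from each other by -0.01 (SE 0.39). The list was drawn up with this difference already known, so the rank of Zdbf2 among the members is a description.

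In limma over all 22519 tested probe sets, the adjusted p of Zdbf2 was 0.0674, above the threshold of 0.05. Without the parental line its log2 difference was 2.16, and it passed at an adjusted p of 0.0365 in limma. With limma's array weights it also passed, at 0.00724. With limma's plain eBayes, which uses neither a trend nor a robust prior, its adjusted p was 0.733. The single knockdown lines against the controls had adjusted p of 0.628 and 0.392 in limma.

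No tested probe set of the genes beside Zdbf2 on the chromosome had a difference of this size. The 4 protein-coding genes on each side were taken from the RefSeq gene order. Beyond Adam23 on one side, Gm39653 and Dytn had no probe set of a single symbol, and the 1 probe set of Mdh1b was too dim to be tested. Adam23 was therefore the only tested gene on that side. Gpr1 (1460123_at), the adjacent gene, which encodes a receptor for chemerin and is itself imprinted in mice, had signals of 51.1 and 115 in the knockdown lines, against 52.7, 24.1 and 106 in the control lines. Knockdown line 1 lay below 2 control lines, so the groups overlapped (log2 difference 0.58, SE 0.64). Adam23 (1423378_at), the neighbour on the other side, which encodes a cell surface protein of neurons, had 284 and 349 in the knockdown lines and 336, 300 and 309 in the control lines, a log2 difference of 0.00 (SE 0.19). Its second tested probe set had 0.05 (SE 0.23). Eef1b2, a translation elongation factor subunit, and Ndufs1, a subunit of respiratory complex I, had log2 differences of 0.06 (SE 0.07) and -0.03 (SE 0.11), and the brightest probe set of Ino80d had 0.12 (SE 0.17). Among dimmer, untested probe sets the groups were apart for Adam23 1459642_at, with 39.3 and 39.4 in the knockdown lines, against 8.36, 16.3 and 26.9 in the control lines. They were also apart for Mdh1b, with 30.3 and 29.0 in the knockdown lines, against 8.37, 11.3 and 10.4 in the control lines. These signals were all under the brightness limit and were not shown to be above background.

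**Figure D1:**
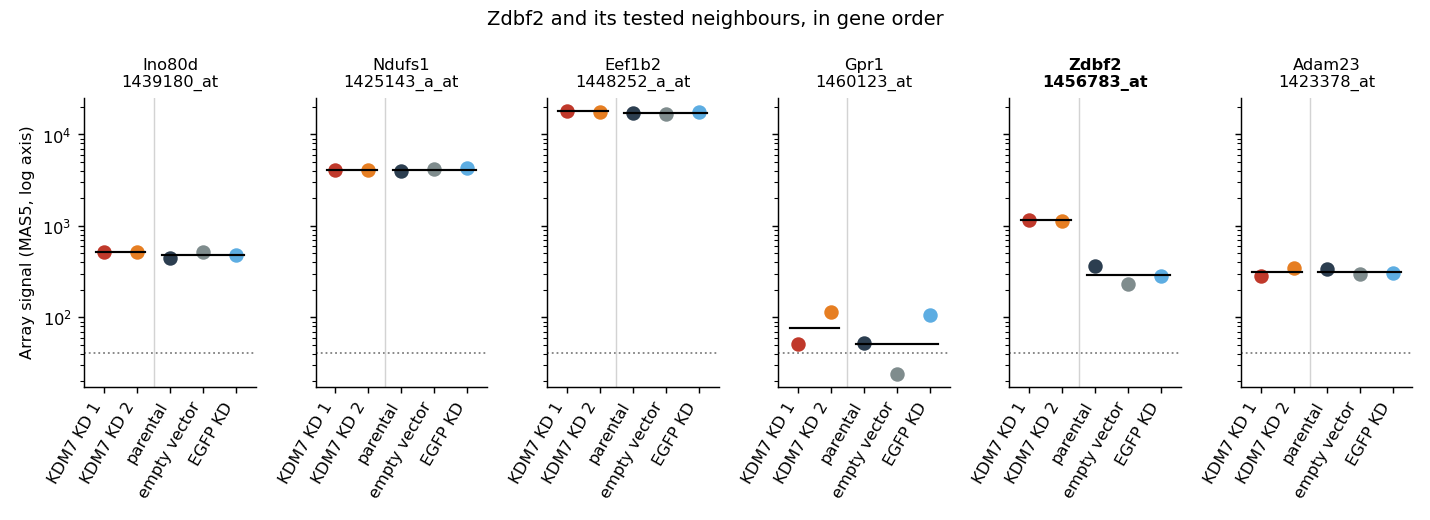
Array signal on a log axis of Zdbf2 and of the neighbouring genes with a tested probe set, in chromosomal order, by the brightest probe set of each. Points are single lines, horizontal bars are means of log2 values for the 2 knockdown and the 3 control lines, and the dotted line is the brightness limit of 40.5. Zdbf2 is at 1152 and 1141 in the knockdown lines and at 233 to 369 in the control lines, while the groups of Gpr1, Adam23, Ndufs1 and Ino80d overlap and those of Eef1b2 differ by 0.06 on the log2 scale.

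Across the 61 tested probe sets of imprinted genes, 0 passed the threshold in limma, where 2 of all 22519 did (0.00888%), 1 of Kdm7a and 1 of Fst, the activin antagonist follistatin, both lower. With an unadjusted p under 0.05 by limma, 5 of 61 were counted (8.20%), against 4.96% of all tested probe sets. These 5 were of Zdbf2, Blcap, Mcts2, Igf2r and Meg3. Without trend and robust 0 of 61 passed after adjustment and 5 had an unadjusted p under 0.05, against 0 and 5.56% of all. For 8 of the 61 probe sets (13.1%) the knockdown lines were both above all controls, against 12.6% of all tested probe sets. These 8 were 2 of Igf2r and 1 each of Zdbf2, Nap1l5, Peg10, Meg3, Rian and Kcnq1ot1. For 6 (9.84%) they were both below, against 10.2% of all, namely 2 of Ube3a and 1 each of Blcap, Mcts2, H13 and Gnas. These shares were near the background. With median centring of the arrays, 4 lay above (6.02% of all) and 9 below (17.7% of all). Zdbf2 was the 1 probe set of the 61 with both lines at least 2-fold above every control line, which 0.0311% of all probe sets were, and 0 were 2-fold below, against 0.0799% of all. The median log2 difference was 0.02 over the 61 probe sets and 0.03 over all tested. The median size of the difference, regardless of sign, was 0.34 and 0.16. Without the parental line 12 lay above (18.5% of all) and 9 below (17.7% of all), and 1, Zdbf2, passed the threshold.

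Taking the brightest tested probe set of each gene, 4 of 29 genes (13.8%) lay above all control lines, namely Zdbf2, Nap1l5, Peg10 and Igf2r, and 2 (6.90%) below, namely Blcap and Mcts2. Apart from Zdbf2, these genes had adjusted p of at least 0.916 in limma, so no difference among them passed the test against the spread between lines.

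Genes classed as paternally expressed numbered 23 in the list, of which 13 were tested. Of these 13, 3 lay above the controls, 1 below and 9 overlapped them, with a median log2 difference of 0.29 and a range of -0.36 to 1.99. Over all tested probe sets, 12.6% lay above and 10.2% below. No test compared the allele classes. Nap1l5, a retrotransposed gene of the nucleosome assembly protein family, had signals of 1770 and 1737 in the knockdown lines, against 675 in parental cells, 1588 with the empty vector and 1270 with the EGFP vector. The parental line was much lower than the other controls, and the empty vector line was close to the knockdown lines. The log2 difference was 0.66 (SE 0.33), and 0.30 without the parental line.

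Peg10, a gene derived from a retrotransposon and needed for the placenta, had 104 and 131 in the knockdown lines, against 67.7, 94.0 and 102 in the control lines. The lower knockdown value was barely above the highest control value. The log2 difference was 0.43 (SE 0.31), and 0.25 without the parental line. Igf2, the insulin-like growth factor that drives fetal growth, had a log2 difference of 0.92 (SE 0.57), the largest after Zdbf2 among the brightest tested probe sets of the 29 genes. Its signals by 1448152_at were 46.9 and 92.7 in the knockdown lines, against 56.5, 18.4 and 41.1 in the control lines. Knockdown line 1 lay below the parental line, and the difference was 0.42 without knockdown line 2, 0.45 without the empty vector line and 1.26 without the parental line.

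Impact, a regulator of translation, had 3728 and 3682 in the knockdown lines, against 2738, 3788 and 2414 in the control lines (log2 difference 0.34, SE 0.19). The empty vector line was above both knockdown lines, and the difference was 0.53 without it, 0.20 without the EGFP knockdown line and 0.29 without the parental line. Sgce, epsilon-sarcoglycan of the dystrophin-associated complex, had 2170 and 1794 in the knockdown lines, against 1886, 1885 and 1184 in the control lines (0.29, SE 0.22). Here the EGFP knockdown line alone was low, and the difference was 0.065 without it and 0.40 without the parental line, while the dim second probe set of Sgce, 1443518_at, was lowest in the parental line (1.10, SE 0.58). Sfmbt2, a Polycomb group protein, had 3681 and 3582, against 2834, 3634 and 3689 in the control lines (0.11, SE 0.14, and -0.01 without the parental line).

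Mcts2 lay below, at 1154 and 1268 in the knockdown lines, against 1670, 1483 and 1503 in the control lines (log2 difference -0.36, SE 0.14, and -0.30 without the parental line). It is an intronless copy within H13 of an X-linked gene, Mcts1, and hybridisation of Mcts1 transcripts to its probe set was not tested. Of the remaining paternal genes, Kcnq1ot1 (log2 difference 0.45, SE 0.47) is described with its domain. Peg3, a zinc finger protein that acts on growth and maternal behaviour in mice, had 3140 and 3727 in the knockdown lines, against 3917, 4400 and 2971 in the control lines (-0.12, SE 0.18). Mest, which encodes a protein with a hydrolase fold, had 4423 and 5167, against 6390, 3987 and 5049 (-0.08, SE 0.19). Inpp5f, an inositol phosphatase, had -0.05 (SE 0.13), and Mkrn3, a ubiquitin ligase gene linked to the timing of puberty, had -0.27 (SE 0.27), with -0.54 without the empty vector line, -0.11 without the EGFP knockdown line and -0.16 without the parental line.

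Genes classed as maternally expressed numbered 25, of which 13 were tested. Of these, 1 lay above the controls (against 12.6% of all tested probe sets), 0 below (against 10.2% of all) and 12 overlapped. The median log2 difference was 0.02, with a range of -0.64 to 0.58. The 1 was Igf2r, the receptor that clears IGF2 from the cell surface, with 75.9 and 61.1 in the knockdown lines, against 57.5, 34.1 and 48.2 in the control lines by 1424112_at (log2 difference 0.58, SE 0.39, and 0.75 without the parental line). By its second probe set, 1424111_at, it had 93.9 and 64.4 in the knockdown lines, against 17.1, 44.5 and 39.1 in the control lines (1.33, SE 0.51, adjusted p = 0.916 in limma). Both probe sets placed the knockdown lines above every control line, at signals near the brightness limit. By 1424111_at the parental line was lowest, and the difference without it is not given.

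Several maternal genes with bright probe sets held a narrow range. Ube3a, the ubiquitin ligase lost in Angelman syndrome and expressed from the maternal copy in neurons, had 6297 and 6489 in the knockdown lines, against 6444, 6433 and 6547 in the control lines. The 5 lines spanned 1.04-fold, and the 95% interval of the log2 difference was -0.22 to 0.19. Nap1l4, a nucleosome assembly protein, had 3862 and 3826, against 3800, 3539 and 3889 in the control lines, with an interval of -0.21 to 0.29. Dimmer probe sets of Ube3a, 1425206_a_at and 1431224_at, lay below all controls with log2 differences of -0.45 (SE 0.29) and -0.39 (SE 0.29). Trappc9, a subunit of a vesicle tethering complex, had 0.35 (SE 0.23, and 0.28 without the parental line), Ppp1r9a, the actin-binding protein neurabin, 0.09 (SE 0.18), and H13, a signal peptide peptidase, 0.12 (SE 0.19). Copg2, a coat protein subunit, had -0.17 (SE 0.18, and -0.037 without the parental line), and Commd1, a regulator of copper transport and NF-kappaB, -0.18 (SE 0.23). Commd1 had 4347 and 4018 in the knockdown lines, against 5872, 5428 and 3354 in the control lines, so the control lines bracketed both, and the difference was -0.43 without the EGFP knockdown line and -0.030 without the parental line.

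In the list, 3 further genes were classed as having an expressed allele that depends on tissue or isoform. Genes of the other classes can depend on tissue too, as Ube3a does. No class was measured in Neuro2A. Blcap, a small membrane protein gene that contains Nnat in an intron, had signals of 1260 and 1442 in the knockdown lines, against 2730 in parental cells, 1736 with the empty vector and 2432 with the EGFP vector. The knockdown lines were both below all control lines, the empty vector line being nearest. The log2 difference was -0.74 (SE 0.20, 95% interval -1.20 to -0.29, unadjusted p = 0.00548 and adjusted p = 0.916 in limma), and -0.61 without the parental line. Nnat itself, a membrane proteolipid of developing brain, had signals of 3.99 to 15.2 and was not tested. Gnas, whose transcripts include the stimulatory G protein alpha subunit, had 13774 and 15060 in the knockdown lines, against 15147, 12518 and 15640 in the control lines, with a log2 interval of -0.24 to 0.25. Grb10, an adaptor that dampens insulin signalling, had 43.1 and 49.6, against 76.7, 44.3 and 67.5 in the control lines (-0.41, SE 0.39, and -0.24 without the parental line).

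**Figure D2:**
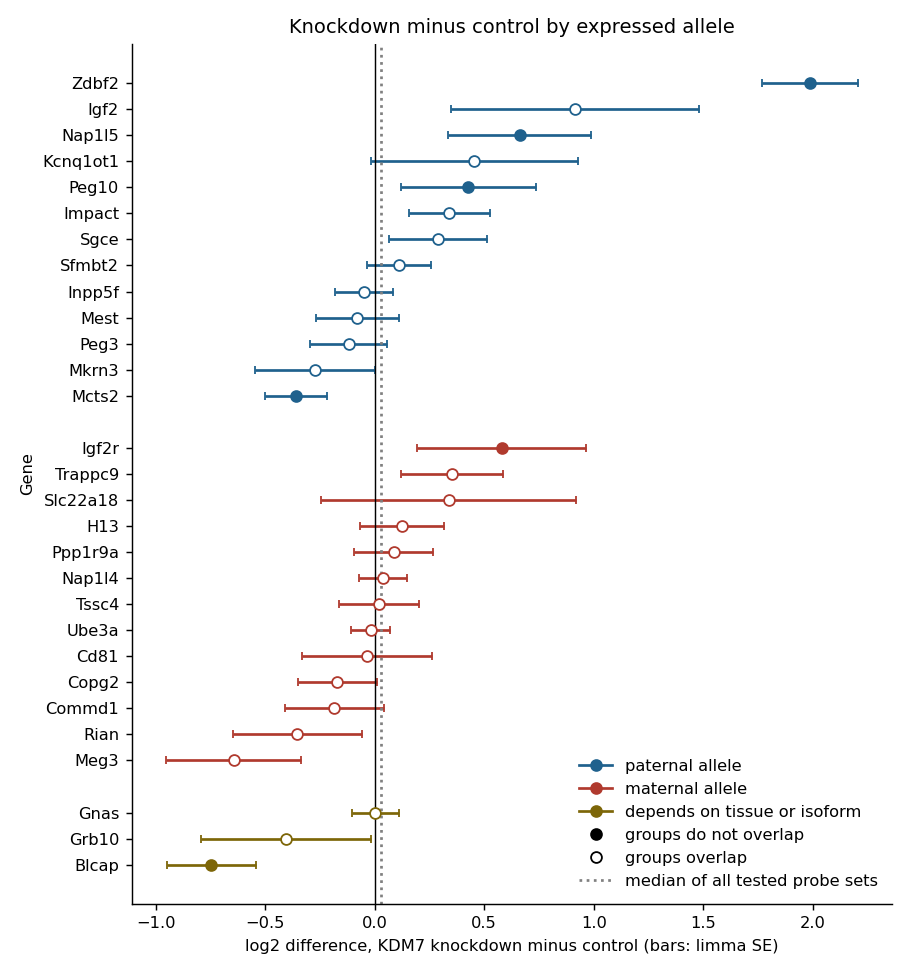
Log2 difference in signal, KDM7 knockdown minus control lines, for the brightest tested probe set of each of the 29 imprinted genes, grouped by the allele expressed, with limma standard errors. Filled points mark genes whose 2 knockdown lines lie on one side of all 3 control lines. Zdbf2 stands at 1.99, Igf2 follows at 0.92, and Blcap is lowest at -0.74.

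The lines also differed in ways that did not follow the knockdown. The 5 lines spanned at least 2-fold for 23 of the 61 probe sets (37.7%), against 21.2% of all tested probe sets. By the brightest probe set of each gene they did so for 9 of 29 genes (31%). Brightness was not matched here either. Of the 61, 12 (19.7%) were highest in the parental line, against 23.0% of all tested probe sets, and 17 (27.9%) were lowest in the empty vector line, against 19.2% of all. Highest in the EGFP knockdown line were 21 (34.4%), for which no share over all tested probe sets is given here. By the brightest probe set of each gene these 3 numbers were 9, 12 and 9 of 29 genes. Between the knockdown lines, line 2 minus line 1, 0 of the 61 probe sets passed in limma, where 1 of all tested probe sets did (0.00444%). A difference of at least 2-fold was seen for 1 of the 61 (1.64%), against 3.08% of all, namely the dim Gnas probe set 1421740_at. Neither knockdown line alone against the controls gave a probe set past the threshold among the 61, where 0 and 1 of all probe sets passed for line 1 and line 2 (0% and 0.00444%). Unadjusted p in limma was under 0.05 for 4 of the 61 in line 1 (1.99% of all), for 3 in line 2 (2.77% of all) and for 0 in line 2 against line 1 (1.51% of all).

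The Kcnq1 domain showed such a pattern by line, which was noticed after the values were seen and carries no test. In this domain Kcnq1ot1, a long non-coding RNA transcribed from the paternal copy, can silence neighbouring genes in cis. The protein-coding genes are classed here as maternally expressed, which can depend on tissue. Neither the expressed copy nor silencing was measured in Neuro2A. All 3 tested probe sets of Kcnq1ot1 were lowest in the parental line, as 31.5% of all tested probe sets were. By 1457781_at Kcnq1ot1 had 91.3 and 133 in the knockdown lines, against 42.1 in parental cells, 100.2 with the empty vector and 124 with the EGFP vector. The corresponding values were 88.8 and 66.5, against 21.4, 64.3 and 43.6, by 1442029_at, where the knockdown lines were both above all controls (log2 difference 0.97, SE 0.51). They were 59.5 and 72.6, against 8.62, 55.8 and 77.0, by 1458161_at. Of its 3 probe sets under the brightness limit, 0 were lowest in the parental line.

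Of the 8 maternal genes of the domain, 6 were highest in the parental line by their brightest probe set, as were 23.0% of all tested and 16.4% of all dimmer probe sets. This was not particular to the domain. Of the 58 dimmer probe sets of all listed imprinted genes, 17 (29.3%) were highest there, and so were Mest, Copg2 and Blcap. Tspan32, tested among the other imprinted genes, was lowest in the parental line, at 85.2, against 124 to 174 in the other 4. Cd81, a tetraspanin, had 3839 and 3737 in the knockdown lines, against 6119 in parental cells, 3022 with the empty vector and 3157 with the EGFP vector. Slc22a18, a transporter, had 72.4 and 55.3, against 116, 32.5 and 33.3. Tssc4, a splicing factor, had 1154 and 1010, against 1297, 948 and 979. These 3 genes thus had one line, the parental, above the other 4.

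The other 3 of the 6 were dim and were not tested. Phlda2, a pleckstrin homology protein that limits placental growth, had 2.18 and 1.95 in the knockdown lines, against 68.6, 5.01 and 5.49 in the control lines. Cdkn1c, the cell cycle inhibitor p57, had 15.5 and 3.48, against 65.7, 6.52 and 15.5. Kcnq1, a potassium channel, had 4.94 and 5.24, against 13.9, 3.65 and 3.40. Nap1l4 spanned 1.10-fold over the lines, and Ascl2, a transcription factor of the placenta, was lowest in the parental line (1.35, against 10.3 to 15.3 in the other 4 lines), at signals under the brightness limit. By brightest probe sets the knockdown and control groups overlapped for the 5 tested genes of the domain, and the log2 differences were 0.45 for Kcnq1ot1, 0.34 for Slc22a18 and -0.03 for Cd81. Without the parental line they were -0.01 for Kcnq1ot1, 0.94 for Slc22a18 and 0.29 for Cd81. The part of passage or transfection in this pattern was not tested.

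**Figure D3:**
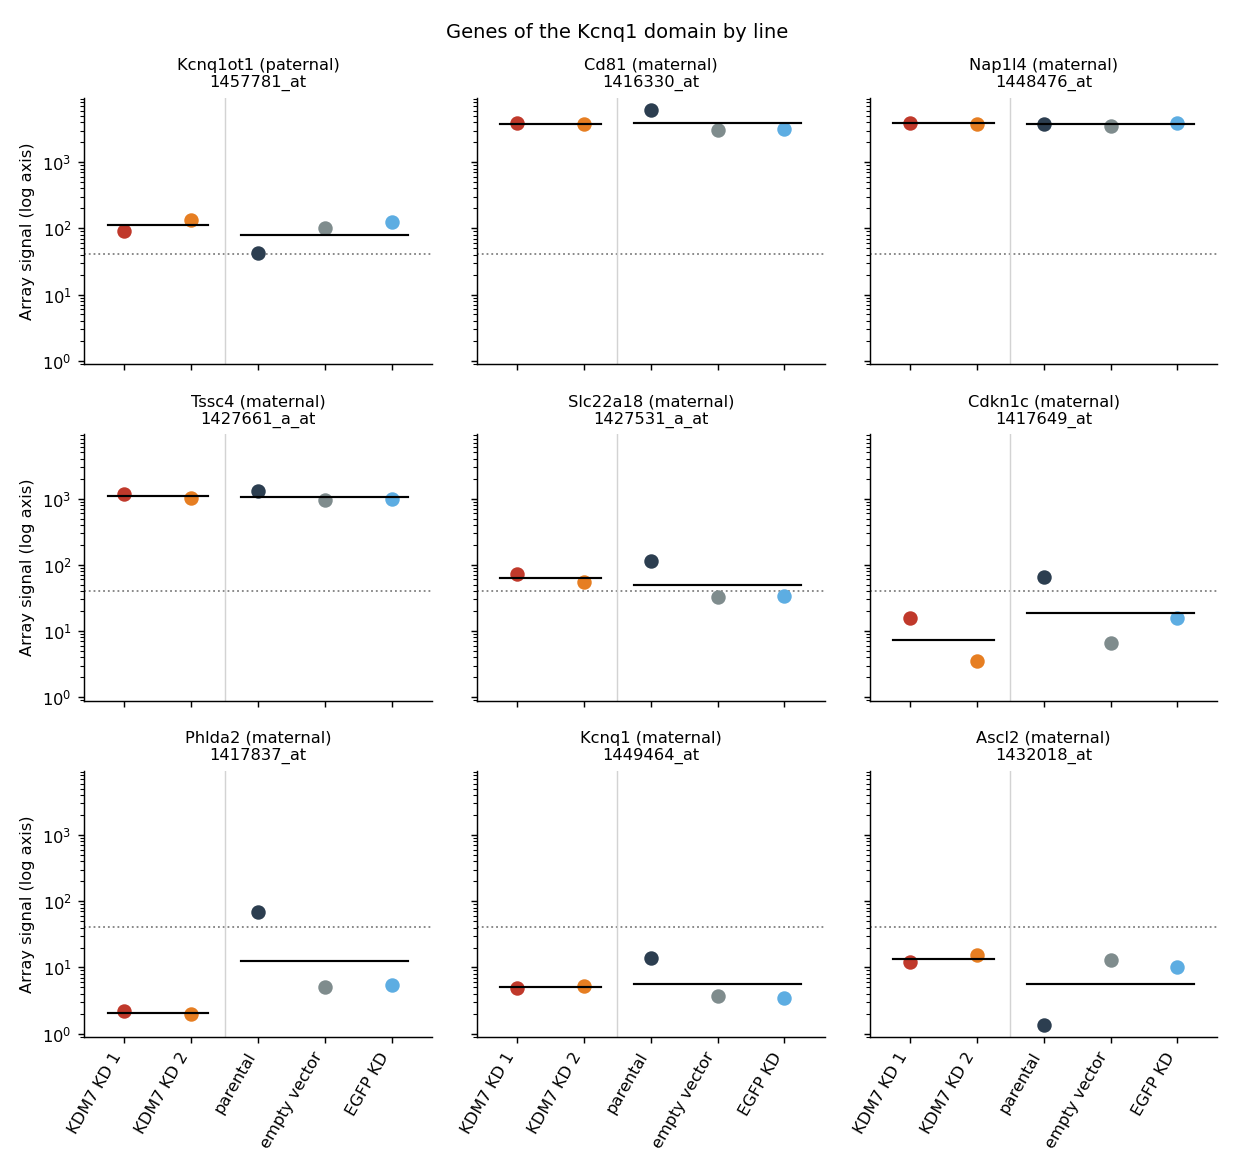
Array signal on a common log axis of the 9 genes of the Kcnq1 domain in each line, by the brightest probe set, with the expressed allele in brackets. Points are single lines, horizontal bars are means of log2 values of the 2 knockdown and the 3 control lines, and the dotted line is the brightness limit of 40.5. The parental line has the lowest Kcnq1ot1 signal (42.1) and the highest signals of Cd81, Slc22a18, Tssc4, Cdkn1c, Phlda2 and Kcnq1.

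In the Dlk1-Meg3 domain the maternal non-coding RNAs Meg3 and Rian ranked the lines in the same order by their brightest probe sets. Meg3 1439380_x_at had 151 and 213 in the knockdown lines, against 317 in parental cells, 192 with the empty vector and 360 with the EGFP vector. Rian 1452899_at, from a transcript that hosts small nucleolar RNAs, had 102 and 129 in the knockdown lines, against 157, 111 and 181 in the control lines. For both, the EGFP knockdown line was highest, followed by the parental line, knockdown line 2, the empty vector line and knockdown line 1, and Meg3 1452183_a_at gave the same order (68.1 and 99.2, against 155, 73.2 and 179). The log2 differences were -0.64 (SE 0.31) for Meg3 and -0.35 (SE 0.29) for Rian, and the empty vector line lay among the knockdown lines. Without the parental line they were -0.55 for Meg3 and -0.30 for Rian, and without knockdown line 1 they were -0.40 and -0.19. Probe sets of these genes disagreed in direction, since the dimmer Meg3 1429257_at lay above all controls with 89.6 and 66.6, against 33.2, 33.6 and 45.0 (log2 difference 1.07, SE 0.38), and Rian 1427580_a_at with 71.9 and 72.3, against 56.4, 34.5 and 50.6 (0.64, SE 0.37). Dlk1, the paternally expressed Notch-like protein of the domain, had at most 53.4 in any line, and Mirg, a host of microRNAs, was likewise under the limit by its mean.

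In other clusters the order of the lines differed, and whether neighbours varied together was not tested. In the Peg3 cluster, Peg3 was the 1 tested gene. Its 3 tested probe sets were highest in the empty vector line, followed by the parental line. Of its dim neighbours, Usp29 1427551_at and Zim1 were highest in the parental line and Usp29 1419237_at in the EGFP knockdown line. In the Mest cluster, Mest and the overlapping maternal gene Copg2 were both highest in the parental line and lowest in the empty vector line, with Copg2 at 1222 and 1178 in the knockdown lines, against 1623, 1111 and 1363. In the Peg10-Sgce cluster, by the brightest probe sets, the paternal gene Sgce was lowest in the EGFP knockdown line. The maternal Ppp1r9a was highest there, at 908, against 854 and 808 in the knockdown lines. Other probe sets differed. Ppp1r9a 1458942_at and 1432037_at were also highest there, but 1456072_at was highest in knockdown line 1 and 1457603_at was lowest in the EGFP line (26.1). Sgce 1443518_at had 75.4 in the EGFP line and was lowest in the parental line (18.3). In the H13-Mcts2 cluster, Mcts2 lay below the controls while its host H13, with 2188 and 2024 in the knockdown lines and 2059, 1497 and 2332 in the control lines, overlapped them.

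**Figure D4:**
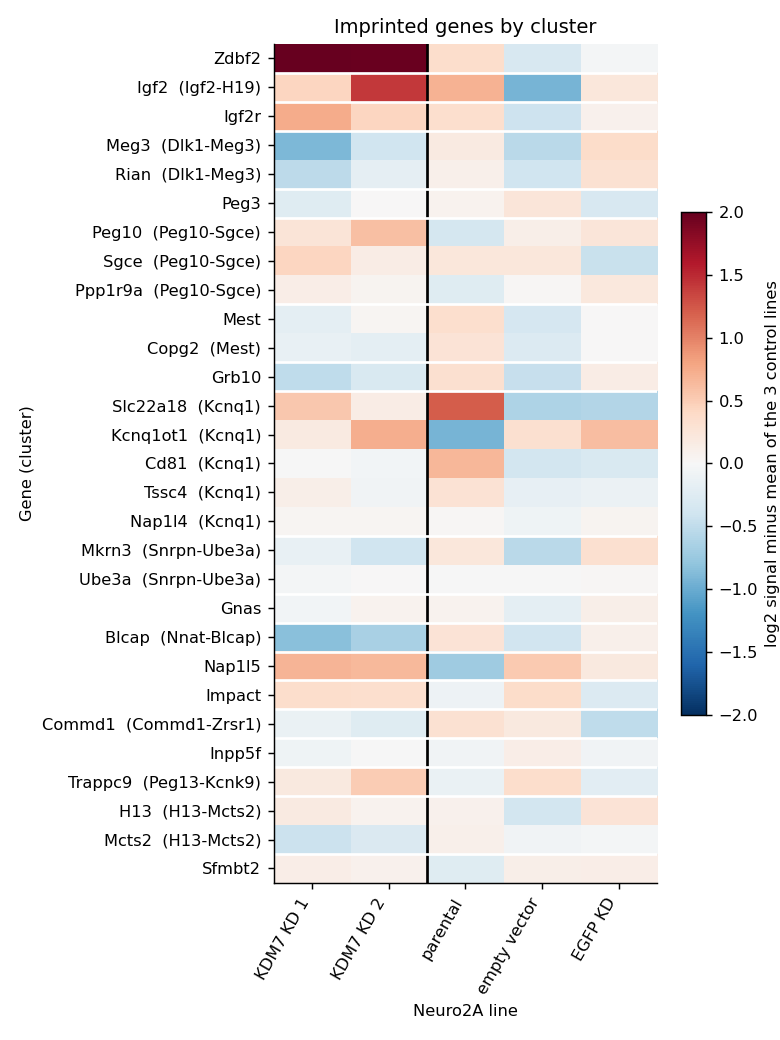
Log2 signal minus the mean of the 3 control lines for the 29 tested imprinted genes (brightest probe set), in rows by cluster, with the 2 knockdown lines left of the 3 control lines. Zdbf2 is the 1 gene near 2 in both knockdown lines. Kcnq1ot1 is low and Slc22a18 and Cd81 are high in the parental line.

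The 18 genes without a tested probe set had signals of at most 69.6 by their brightest probe set. They include Ndn and Magel2, paternally expressed MAGE family genes of the Prader-Willi region, whose brightest probe sets reached 55.3 and 45.4. Usp29, a ubiquitin protease gene beside Peg3, reached 69.6, Plagl1, a zinc finger transcription factor, 44.1 and Rasgrf1, a Ras exchange factor of neurons, 50.1. Calcr, the calcitonin receptor, Asb4, Gatm, a creatine synthesis enzyme, Dcn, the proteoglycan decorin, and Zim1 stayed at or under 29.4. Snrpn was represented by 1 dim probe set, with 46.1 and 35.3 in the knockdown lines and 29.0, 38.1 and 14.6 in the control lines. Among the 58 dim probe sets, both knockdown lines lay above all controls for 7 (12.1%), against 12.4% of all probe sets under the limit, and below for 6 (10.3%), against 7.75% of all.

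Genes that set or read imprints, and other imprinted genes, were listed alongside. Of 25 tested imprint regulators 0 rose and 0 fell in limma, none of them with an unadjusted p under 0.05 by the brightest probe set. Their median log2 difference was -0.02, and adjusted p in limma was at least 0.916. Both knockdown lines lay above the controls for 2 of the 25, where 12.6% of all tested probe sets did, namely Setdb1, an H3K9 methyltransferase recruited with ZFP57 (0.35, SE 0.18), and Dnmt3a, a de novo DNA methyltransferase (0.17, SE 0.14). They lay below for 1, where 10.2% of all did, namely Dnmt1, the maintenance DNA methyltransferase (-0.12, SE 0.11). These positions are by the brightest probe set of each gene, and those of Dnmt3a disagreed in direction. Its dimmer tested probe sets had -0.12 (SE 0.16), -0.31 (SE 0.16), -0.13 (SE 0.21) and -0.42 (SE 0.35). The probe set with -0.31 lay below all controls, with 663 and 614 in the knockdown lines, against 873, 719 and 788 in the control lines. Zfp57 was near the brightness limit, with 61.7 and 55.2 in the knockdown lines, against 21.5, 46.1 and 60.5 in the control lines. Trim28, the corepressor that ZFP57 recruits, had a log2 difference of -0.02 (SE 0.09), and Ezh2, the Polycomb H3K27 methyltransferase, -0.06 (SE 0.12). Of 6 tested other imprinted genes 0 rose and 0 fell, 1 lay above the controls, Tspan32 (0.48, SE 0.29), and 1 below, Ddc, an enzyme of monoamine synthesis beside Grb10 (-0.44, SE 0.23).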

How the data were processed

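Biotin cRNA of 5 Neuro2A lines was hybridised to 1 array each, per the labels' protocols. The deposited values are linear signal intensity values from MAS5, per the submitters' processing notes, with no version given in the sources used here. All arrays had a deposited 2% trimmed mean intensity of 500.0, so none was rescaled. Detection calls were not used, so a dim signal may be background.

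Of 45101 probe sets, 64 controls were dropped. Signals were log2-transformed without an offset. Symbols came from the platform annotation and were the same for all 29 tested genes in the gene table of assembly GRCm38.p6. Knockdown lines (n = 2) were set against control lines (n = 3) with limma 3.58.1 in R 4.3.3, by lmFit and by eBayes with trend and robust, and Benjamini-Hochberg adjustment covered the 22519 tested probe sets. Single knockdown lines came from a 3-group model in which they were assumed to vary like the controls. The fit was run on simulated data with independent noise and added differences of known size. Those data held no line or construct effects, so they do not show how the test performs on these arrays.

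The members and gene lists were chosen with earlier results of these data known. Named with all values were Zdbf2, genes whose groups did not overlap with a log2 difference of at least 0.5, the 8 with the brightest probe sets, the 6 that varied most over the lines, and genes that differed 2-fold between knockdown lines. Other members, the neighbours of Zdbf2 and the parental pattern in the Kcnq1 domain were named after their values were seen. Expressed alleles and clusters are textbook knowledge, not measured here. Alternatives changed the scaling (quantile, median centring, cyclic loess), the brightness filter (none, or the 70th percentile), the offset (32), the variance model (plain eBayes, or array weights) and the threshold (0.10), or left out a line.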

Additional observations from a re-analysis of the deposited data

How the results depend on the processing

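The Zdbf2 log2 difference stayed between 1.83 and 2.16 in all 14 alternatives, and between 1.83 and 2.16 when single lines were left out. It passed the threshold in limma with array weights (2.07, adjusted p = 0.00724), with an adjusted p under 0.10 (1.99, 0.0674) and without the parental line (2.16, 0.0365), so that the count of imprinted probe sets past the threshold was 1 in these and 0 in the other alternatives; over the lines left out it was 0 to 1. The adjusted p was 0.0884 without the empty vector line, 0.659 without the EGFP line, 0.409 without knockdown line 1 and 0.562 without knockdown line 2. The count above all controls was 4 with median centring, 15 with no brightness filter and 2 at the 70th percentile, and the count below was 12 and 2 with these filters, since they changed how many probe sets were tested. When a line was left out, with fewer lines to exceed, 11 to 18 lay above and 8 to 14 below, while 18.5% to 24.5% of all probe sets lay above and 16.6% to 20.9% below. Median centring moved the median of all probe sets by more than 0.1, to -0.08, and took the share above from 12.6% to 6.02% and below from 10.2% to 17.7% of all probe sets. The median over imprinted probe sets ranged from -0.08 to 0.05. The single-line and line 2 against line 1 counts stayed at 0.

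The log2 differences of 12 genes turned sign, none past the threshold. Their values were -0.12 (Peg3) to 0.12 (H13), except Kcnq1ot1, at 0.45. Median centring shifts all log2 differences by the same amount, and the cause of the other sign changes was not tested. Gnas had -0.018 with quantile normalization, -0.11 with median centring and -0.0023 with cyclic loess. With median centring Nap1l4 had -0.070, Ppp1r9a -0.023 and Tssc4 -0.088. With array weights Cd81 had 0.087 and Mest 0.0011. With single lines left out, Gnas ranged from -0.096 to 0.068, Tssc4 from -0.075 to 0.16, Cd81 from -0.21 to 0.29, Mest from -0.25 to 0.092, Ppp1r9a from -0.034 to 0.19, Kcnq1ot1 from -0.014 to 0.76, Sfmbt2 from -0.012 to 0.18, H13 from -0.058 to 0.26, Inpp5f from -0.082 to 0.016, Peg3 from -0.28 to 0.0054 and Ube3a from -0.040 to 0.0032. Leaving out the parental line turned Cd81, Mest, Kcnq1ot1, Ppp1r9a and Sfmbt2. No paired analysis was possible, because each line was measured on a single array and the labels match no control line to a knockdown line. The number of arrays limits the precision, and signals near 40.5 are not shown to be above background.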
